A study of Mus musculus with 6 samples.

Results

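The regions described here are 50 kb tiles of the mouse autosomes in which the CpG methylation level with DNMT3B1 exceeded that with DNMT3A2. A level is the share of bisulfite reads at CpG sites that were methylated. Each tile was divided into clusters of 500 bp, and a tile was chosen where the summed level of the DNMT3B1 line was above that of the DNMT3A2 line in its odd-numbered clusters. Of 42446 tiles with at least 50 sites of 5 or more reads in both lines, 3268 were chosen by this rule, which is 7.7% of them and covers 163.4 Mb. The even-numbered clusters of the same tiles were not used by the choice, and all levels given below are those of even clusters unless odd clusters are named. Where only the 2 enzymes are compared, levels are over all even-cluster sites that passed in both lines. Where the knockout is given, levels of all 3 lines are over the sites that passed in each of them, called shared sites, unless stated otherwise. With the rule applied to all sites of each tile, 2230 tiles were chosen, of which 1572 were among the 3268.

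Whole-genome bisulfite sequencing was done on 3 lines of mouse embryonic stem cells. All of them lack DNMT1, DNMT3A and DNMT3B, so methylation in them comes from a single reintroduced enzyme. The first line carries DNMT3B1 and has in addition lost SETD2, the second carries DNMT3B1 with SETD2 intact, and the third carries DNMT3A2. Each line was sequenced in 2 runs that share 1 deposited value per site, so a line counts as 1 sample, there is no replicate check, and a difference between lines cannot be told apart from a difference between clones, culture dates or amounts of enzyme. The cells were grown on feeder cells or on gelatine, and the labels do not say which for each line. The tables held 200947834 reads over CpGs for the SETD2 knockout, 188661576 for DNMT3B1 and 200364080 for DNMT3A2. No test was made between lines: exact binomial (Clopper-Pearson) and ratio intervals of 95% cover counting error only, are too narrow because neighbouring CpGs share reads and no molecular identifiers were used, and the spread is given over the 19 autosomes.

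DNMT3A2 and DNMT3B1 are de novo methyltransferases, which place methyl groups on cytosines that carry none. DNMT3A2 is a short isoform made from an internal promoter of Dnmt3a and is the main DNMT3A form of embryonic stem cells. DNMT3B1 is the full-length catalytic isoform of DNMT3B, and its PWWP domain binds trimethylated lysine 36 of histone H3, a mark that SETD2 lays down over the bodies of transcribed genes. Without DNMT1, the maintenance enzyme, methylation is diluted at each division of the cells.

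The promoters of 3 genes whose starts lie in chosen tiles are given as examples. Fasn (fatty acid synthase) lies in the deepest chosen tile. Grm7 (a metabotropic glutamate receptor) and Gabra2 (a subunit of the GABA-A receptor) lie in tiles of the longest runs. They do not stand for the CpG content of these regions, since most chosen tiles hold no located start. Each line gives the 250 bases before the start, 5′ to 3′ on the gene's strand, from RefSeq (GRCm38.p6), with CpGs in capitals. They were placed on mm9 by matching the spacing of their CpGs to the site table, at chr11:120685862-120686111 (minus strand) for Fasn, chr6:110595342-110595591 (plus strand) for Grm7 and chr5:71487089-71487338 (minus strand) for Gabra2.
Fasn: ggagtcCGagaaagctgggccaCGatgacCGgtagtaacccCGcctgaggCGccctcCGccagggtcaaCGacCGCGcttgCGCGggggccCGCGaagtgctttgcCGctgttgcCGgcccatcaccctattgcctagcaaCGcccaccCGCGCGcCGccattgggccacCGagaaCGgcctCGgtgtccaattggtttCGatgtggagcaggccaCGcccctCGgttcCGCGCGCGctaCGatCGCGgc
Grm7: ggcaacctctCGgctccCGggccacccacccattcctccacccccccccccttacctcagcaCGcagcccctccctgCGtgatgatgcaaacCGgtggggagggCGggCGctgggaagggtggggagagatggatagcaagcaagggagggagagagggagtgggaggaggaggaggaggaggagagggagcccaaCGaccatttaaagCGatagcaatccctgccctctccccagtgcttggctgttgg
Gabra2: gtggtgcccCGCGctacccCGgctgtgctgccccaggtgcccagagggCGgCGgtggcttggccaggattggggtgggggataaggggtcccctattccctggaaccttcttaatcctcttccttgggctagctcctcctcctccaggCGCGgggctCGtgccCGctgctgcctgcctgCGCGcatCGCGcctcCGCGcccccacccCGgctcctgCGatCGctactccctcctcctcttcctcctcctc
These promoters held 33, 9 and 18 CpGs. The reads given for the knockout come from the 33, 3 and 2 sites that passed in all lines. Those for the enzymes come from the 33, 6 and 11 that passed in both. Sites of odd clusters, which made the choice, are included along with those of even clusters. At the Fasn promoter 3 of 1162 reads were methylated in the SETD2 knockout, 2 of 618 with DNMT3B1 and 0 of 690 with DNMT3A2. That count of 0 allows up to 0.435%, an approximate limit taken as 3 divided by the number of reads. At the Grm7 promoter no read was methylated among 54 in the SETD2 knockout, 53 with DNMT3B1 and 40 with DNMT3A2. By the same approximation this allows up to 5.56%, 5.66% and 7.5%. At the Gabra2 promoter, 0 of 22 reads were methylated in the SETD2 knockout, 0 of 115 with DNMT3B1 and 1 of 88 with DNMT3A2. Almost no methylated read was thus found in these stretches, and at Grm7 and Gabra2 the depth is too low to tell a promoter level from that of the tile around it.

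In the odd clusters that made the choice, the chosen tiles had 3.61% methylated reads with DNMT3B1 and 2.50% with DNMT3A2, values that the rule set. In the even clusters the order of the 2 enzymes was the opposite: the pooled level was 2.37% with DNMT3B1 (2.34 to 2.39) and 3.98% with DNMT3A2 (3.95 to 4.01), a ratio of 0.594 (0.587 to 0.602). In the other tiles the levels were 2.83% with DNMT3B1 and 7.48% with DNMT3A2, a ratio of 0.378. The chosen tiles as a set were therefore not more methylated with DNMT3B1 outside the clusters that chose them. Against the other tiles as a whole they differed most in the DNMT3A2 level, which was 0.533 times theirs, while the DNMT3B1 level was 0.837 times theirs. Other tiles of low density or depth came close to this. Below 4 CpG sites per kb the ratio was 0.567 in other and 0.698 in chosen tiles, with DNMT3A2 at 4.03% and 3.04%. Below 200 reads in the odd clusters of whichever line had fewer, it was 0.600 in other and 0.621 in chosen tiles. The DNMT3A2 level was lower in chosen than in other tiles on 19 of 19 autosomes and the DNMT3B1 level on 17, and the DNMT3B1 over DNMT3A2 ratio was higher on 19. On no autosome was the pooled DNMT3B1 level above that of DNMT3A2.

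Counted by tile, 880 of the 3268 chosen tiles (26.9%, 25.4 to 28.5) had a higher level with DNMT3B1 than with DNMT3A2 in their even clusters too, against 7.37% of all tiles compared and 5.74% of the other tiles. At like density the shares lay closer together. Below 4 CpG sites per kb they were 37.6% of chosen and 27.5% of other tiles. At 4 to 5 they were 28.8% and 20.8%, at 5 to 6 24.1% and 13.3%, and at 8 to 10 15.3% and 1.23%. Across autosomes the share of chosen tiles that were higher again lay between 14.9% on chromosome 18 and 36.9% on chromosome 17. It grew with the margin of the choice, but not at each step. DNMT3B1 was higher again in 21.2% of the 1104 tiles whose odd ratio was at most 1.25. For odd ratios up to 1.5, 2 and 3 the shares were 23.9%, 31.2% and 29.1%. In the 471 tiles whose odd ratio was above 3 the share was 36.7%. The median was 5.20 CpG sites per kb in the first class and 4.66 in the last, and the part of density was not tested. The even ratio of DNMT3B1 over DNMT3A2 was 0.549 in the first of these classes and 0.724 in the last, so that the pooled level with DNMT3B1 was below that with DNMT3A2 even there. The DNMT3A2 level was 4.53% in the first class and 2.89% in the last, whereas the DNMT3B1 level was 2.49% in the first and 2.09% in the last.

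Many tiles lay close to the threshold. The 2 levels differed by less than 1 percentage point in the odd clusters of 1713 chosen tiles (52.4%), and 30 tiles that were not chosen had equal levels, 16 of them with no methylated read in either line. Just inside, chr7:69600001-69650000 had 0.721% with DNMT3B1 and 0.720% with DNMT3A2 in odd clusters, chr6:132850001-132900000 had 1.143% and 1.142%, and chr2:8250001-8300000 had 2.190% and 2.188%. Just outside, chr1:70000001-70050000 had 2.90% with both enzymes, and chr1:96250001-96300000 and chr1:146250001-146300000 had 0% with both.

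The SETD2 knockout was not part of the choice. On even-cluster sites measured in all 3 lines, the chosen tiles had 5.44% methylated reads in the SETD2 knockout, 2.36% with DNMT3B1 and 4.04% with DNMT3A2. The other tiles had 5.88%, 2.76% and 7.35% in the same order of lines. The knockout level in chosen tiles was thus 0.924 times that of the other tiles, the DNMT3B1 level 0.855 times and the DNMT3A2 level 0.549 times. Relative to DNMT3A2, the knockout stood at 1.35 (1.33 to 1.37) in chosen tiles and at 0.800 in the others, and its level was above that of DNMT3A2 in the chosen tiles of 19 autosomes and in the other tiles of none. CpG-poor tiles that were not chosen also had a knockout over DNMT3A2 ratio above 1: it was 1.38 below 4 CpGs per kb, 1.23 at 4 to 5 and 1.08 at 5 to 6, against 1.69, 1.58 and 1.38 in chosen tiles of the same density. In these 3 classes the knockout exceeded DNMT3A2 in 74.4%, 72.3% and 69.1% of chosen tiles, and in 67.9%, 62.7% and 58.2% of the others. Over all densities the knockout exceeded DNMT3A2 in 1645 of the 2387 chosen tiles with at least 10 such sites (68.9%), against 37.2% of all tiles and 35.2% of the others. With a minimum of 10 reads per site 698 tiles were chosen, and the knockout then stood below DNMT3A2, at 0.932 in chosen and 0.777 in other tiles.

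**Figure D1:**
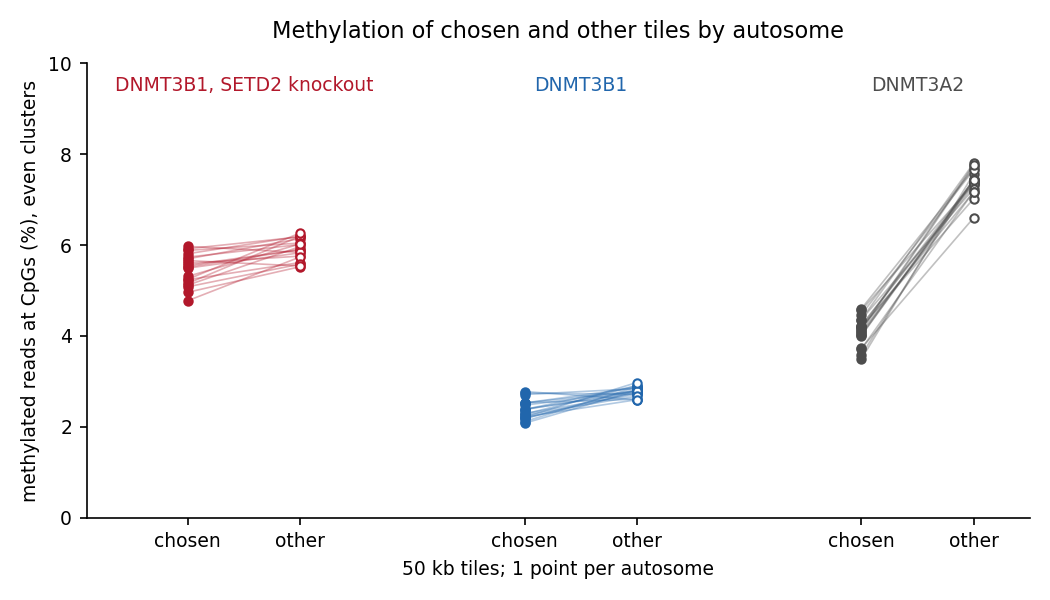
Pooled methylation level (%, vertical axis) in even clusters for each of the 19 autosomes, in the SETD2 knockout (red), with DNMT3B1 (blue) and with DNMT3A2 (grey); filled points are chosen tiles, open points other tiles, and a line joins the values of 1 autosome. The DNMT3A2 points of chosen tiles lie between 3.49% and 4.60%, below those of other tiles on all 19 autosomes, while the knockout and DNMT3B1 points of both kinds of tile lie close together.

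Against the line with SETD2 intact, the knockout level was 2.30 times as high in chosen tiles (2.26 to 2.34) and 2.13 times as high in the others. The ratio was higher in chosen tiles on 17 of 19 autosomes, with a range of 1.89 on chromosome 11 to 2.60 on chromosome 1 in chosen tiles, and of 2.08 to 2.16 in the others. It was below that of the other tiles under 2 alternatives: 2.00 against 2.09 with a minimum of 10 reads per site, and 1.75 against 2.11 with at least 200 sites per tile. Counted by tile, the knockout exceeded DNMT3B1 in 2064 of 2387 chosen tiles (86.5%), against 94.1% of all tiles and 94.6% of the others, with a median of 14 sites per chosen tile and 65 per other tile. The order knockout, DNMT3B1, DNMT3A2 from high to low was found in 20.9% of chosen tiles and 4.91% of the others. The most common order in chosen tiles was knockout, DNMT3A2, DNMT3B1 (40.1%), and in the others it was DNMT3A2, knockout, DNMT3B1 (60.8%).

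Chosen tiles were poor in CpGs. Their median density was 5.04 CpG sites per kb, with the middle 50% between 4.36 and 6.02, against 8.40 in the other tiles, with 6.10 to 11.2. With all tiles ranked by density into 10 classes of like size, 27.2% of the poorest class were chosen, and the share dropped at each step to 0.166% in the richest. The 3 poorest classes held 2538 chosen tiles (77.7%), and the 5 richest held 184 (5.63%). Tiles with few CpGs also had few reads, since a median of 355 reads with DNMT3B1 and 360 with DNMT3A2 stood behind the choice in chosen tiles, against 1294 and 1321 in the others. The share of CpGs that passed the read limits was 33.3% in chosen and 60.9% in other tiles. Density and the number of reads therefore moved together with the choice, and their parts in it cannot be told apart.

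Within classes of equal density the DNMT3A2 level was still lower in chosen tiles, in 8 of 8 classes, as was the knockout level. At 4 to 5 CpGs per kb, the 1144 chosen tiles had 5.66% in the knockout, 2.23% with DNMT3B1 and 3.58% with DNMT3A2, against 6.10%, 2.60% and 4.95% in the 3569 others. At 8 to 10 CpGs per kb, the 144 chosen tiles had 4.93%, 2.34% and 4.61%, against 6.60%, 3.06% and 8.14% in the 7496 others. The gap in percentage points was wider in the second of these classes in all 3 lines, and in both classes it was largest for DNMT3A2. The DNMT3B1 level was lower in chosen tiles in 7 of the 8 classes. The knockout over DNMT3B1 ratio was higher in chosen tiles in 5 of the 8 classes. By local density, the DNMT3A2 level was lower in chosen tiles in 6 of 6 classes. At sites with 10 to 19 CpGs in the kb around them, chosen tiles had 6.20% in the knockout, 2.96% with DNMT3B1 and 5.92% with DNMT3A2, against 6.94%, 3.31% and 9.18% in the others. The DNMT3B1 lines did not follow this at denser sites: at 20 to 39 CpGs per kb the knockout had 5.13% in chosen and 5.05% in other tiles, and DNMT3B1 had 2.85% and 2.45%, while DNMT3A2 had 4.76% and 6.78%. At 40 to 59 CpGs per kb DNMT3B1 had 0.538% in chosen and 0.436% in other tiles. At sites with 60 or more CpGs per kb, all 3 lines were under 0.5% in both kinds of tile.

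**Figure D2:**
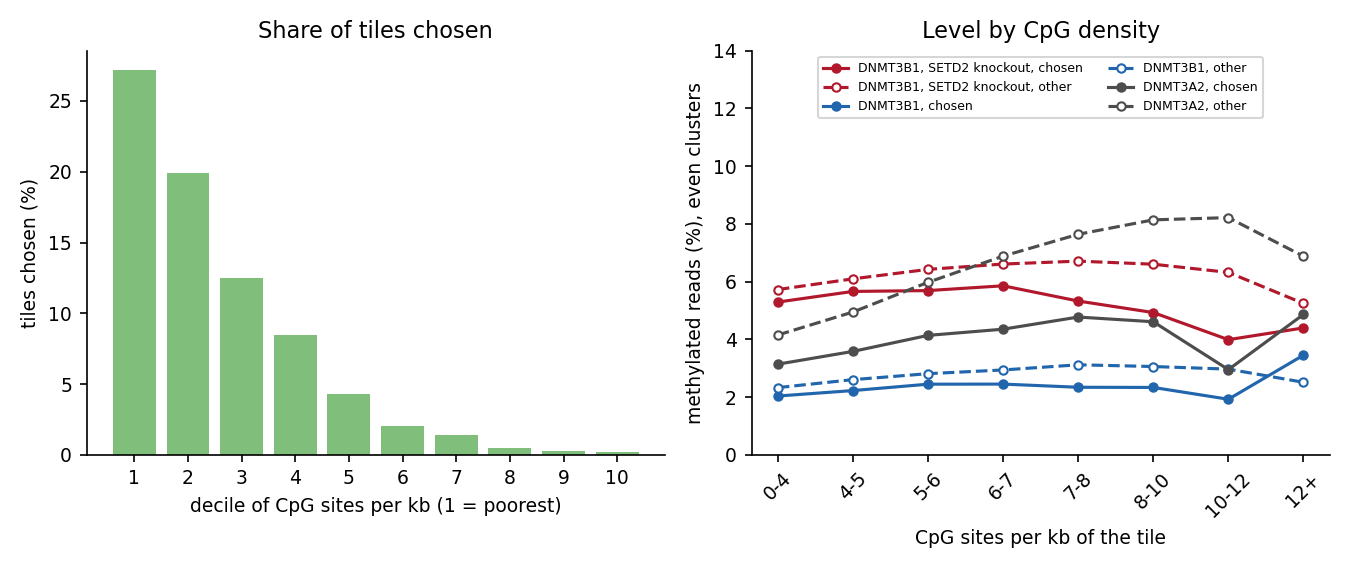
Left, share of tiles chosen (%) in each of 10 ranked classes of CpG density; right, pooled methylation level (%) in even clusters by CpG sites per kb of the tile for the 3 lines, with chosen tiles as filled points and solid lines and other tiles as open points and dashed lines. The share is 27.2% in the poorest class and 0.166% in the richest, and the solid DNMT3A2 line lies below the dashed one in all 8 classes.

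The difference was also visible at single sites. At sites covered by 10 or more reads in every line, no methylated read was found at 68.0% of sites of chosen tiles in the knockout, 84.9% with DNMT3B1 and 73.6% with DNMT3A2. In the other tiles these shares were 62.7%, 81.3% and 58.1%. Sites methylated in 50% or more of their reads made up 1.08% of sites in the knockout, 0.357% with DNMT3B1 and 0.619% with DNMT3A2 in chosen tiles, against 0.865%, 0.326% and 1.38% in the others. Sites of high methylation were thus fewer with DNMT3A2 in chosen tiles, and not fewer in the lines with DNMT3B1.

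The share of tiles higher again differed with the number of reads, which moved with density: the median of chosen tiles was 4.58 CpGs per kb below 200 reads and 9.99 at 1600 reads or more, counted in the odd clusters of whichever line had fewer. Below 200 reads, 29.5% of 224 chosen tiles were higher with DNMT3B1 in even clusters too, against 29.7% of 444 others, a difference of less than the counting error. At 200 to 400 reads the shares were 31.4% and 23.0%, and at 400 to 800 reads 21.9% and 9.92%. At 800 to 1600 reads the shares were 12.7% and 1.37%. Only 34 chosen tiles had 1600 reads or more, of which 1 was higher again, against 0.203% of the 15799 others. In those 34 tiles the levels were 4.24% in the knockout, 2.77% with DNMT3B1 and 4.34% with DNMT3A2, with a knockout over DNMT3B1 ratio of 1.53 (1.45 to 1.62), against 2.10 in the others.

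Chosen tiles had a chosen neighbour more often than other tiles did. Of the 3268, 1108 (33.9%, 32.3 to 35.6) had a chosen tile directly before or after them, against 9.82% of the other tiles. They formed 2649 runs, of which 2160 were single tiles, 399 held 2 tiles, 63 held 3 tiles, and the longest held 7. The longer the run, the lower was the DNMT3A2 level in even clusters: 4.25% in single tiles, 3.51% in runs of 2, 3.25% in runs of 3 and 2.74% in runs of 4 to 7. The DNMT3B1 level was 2.42%, 2.27%, 2.26% and 2.12% in the same order, and 540 of 2160, 234 of 798, 61 of 189 and 45 of 121 tiles were higher with DNMT3B1 again. Neighbouring tiles share their CpG density, which was not held fixed here.

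Tiles around chosen tiles also had a lower DNMT3A2 level than other tiles, and many of them were chosen themselves: 22.8% of the tiles 50 kb away and 20.5% of those 200 kb away, against 5.56% and 5.74% around other tiles. The level was 4.04% in the chosen tiles, 4.81% in the tiles 50 kb away, 5.58% at 200 kb, 6.22% at 500 kb, 6.68% at 1000 kb and 7.10% at 2000 kb, against 7.35% in other tiles. The knockout was at 5.59% at 50 kb and 5.87% at 2000 kb, and DNMT3B1 at 2.43% and 2.75%, so both changed little over the same distance. The knockout exceeded DNMT3A2 out to 250 kb from a chosen tile. Without the chosen tiles among the flanking ones, an alternative added after seeing the data, DNMT3A2 was at 5.06% at 50 kb, 5.82% at 200 kb, 6.40% at 500 kb and 7.19% at 2000 kb, against 7.40%, 7.40%, 7.42% and 7.41% around other tiles, and the knockout exceeded it out to 150 kb. Density changed along the same path, with a median of 5.28 CpG sites per kb at 50 kb and 6.92 at 2000 kb, and its part was not tested.

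**Figure D3:**
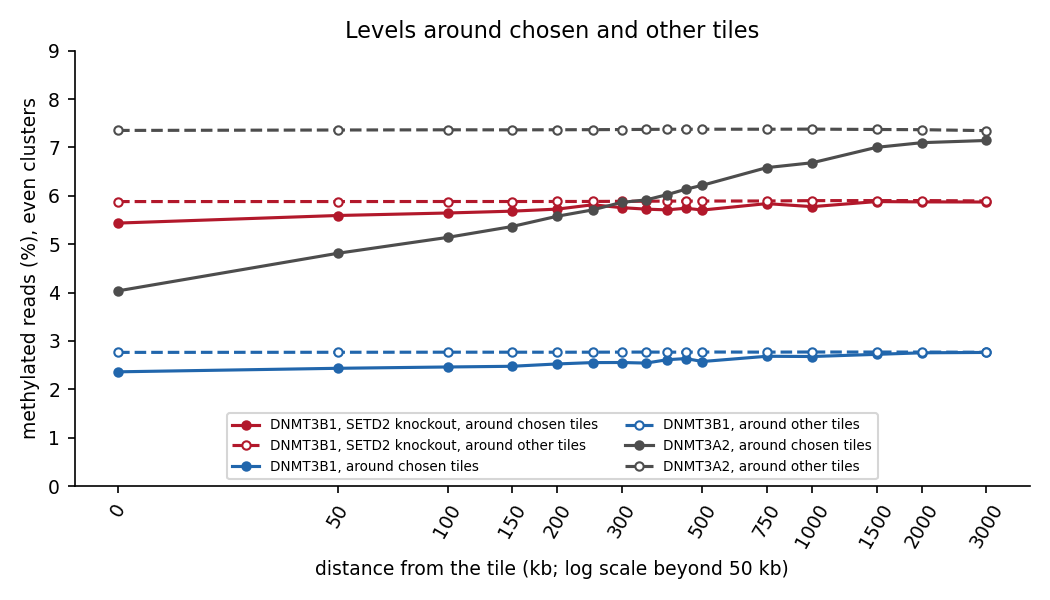
Pooled methylation level (%) of tiles at increasing distance (kb, log scale beyond 50 kb) from chosen tiles (filled points, solid lines) and from other tiles (open points, dashed lines) in the 3 lines, with chosen tiles among the flanking ones kept. The DNMT3A2 level is 4.04% in chosen tiles and 7.10% at 2000 kb, while the knockout and DNMT3B1 levels stay nearly flat.

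The chosen tiles were found on all 19 autosomes, with the highest share on chromosome 16 (10.7% of its tiles) and the lowest on chromosome 11 (4.44%). Chromosome 11 also had the deepest coverage, at 15.6 reads per site with DNMT3B1 and 16.2 with DNMT3A2, where the median autosome had 11.4 and 11.6. It had the highest CpG density as well, and the parts of depth and density in its low share were not tested. Among 449 windows of 5 Mb, 60 held no chosen tile and 34 had more than 20% of their tiles chosen. The richest, chr5:55000001-60000000, had 25 of 58 tiles chosen (43.1%). Its levels were 4.86% in the knockout, 2.24% with DNMT3B1 and 3.10% with DNMT3A2, and the only gene start located in it was that of Pcdh7, a protocadherin of neurons. Another, chr16:65000001-70000000, which holds the starts of Cadm2, Pou1f1 and Htr1f among others, had 22 of 65 tiles chosen. Both windows were named after their values were seen.

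The longest runs held few methylated reads each. The run of 7 tiles at chr11:39100001-39450000 had 103 of 2602 methylated reads in the knockout (3.96%), 28 of 1828 with DNMT3B1 (1.53%) and 51 of 2013 with DNMT3A2 (2.53%) on shared sites. On all its even sites DNMT3B1 had 1.69% and DNMT3A2 2.12%, and the nearest located gene start lay 793 kb away. The other run of 7, chr5:49550001-49900000, holds a start of Kcnip4, an interactor of voltage-gated potassium channels. It had 41 of 1282 in the knockout (3.20%), 3 of 866 with DNMT3B1 (0.346%) and 19 of 803 with DNMT3A2 (2.37%) on shared sites, and 1.36% with DNMT3B1 and 3.25% with DNMT3A2 on all even sites. The run of 6, chr16:81900001-82200000, had 22 of 653 in the knockout (3.37%), 5 of 483 with DNMT3B1 (1.04%) and 7 of 482 with DNMT3A2 (1.45%) on shared sites. On all its even sites DNMT3B1 had 2.03% and DNMT3A2 2.47%. In these 3 runs DNMT3B1 was below DNMT3A2 on either set of sites, and on shared sites the knockout was above both. The counting intervals of the 2 enzymes overlapped in the runs on chromosomes 11 and 16, on either set of sites. The Kcnip4 run was the clearest case, with no tile of 7 higher again.

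Of the 8 longest runs, only chr6:110500001-110750000, which holds the start of Grm7, had a pooled DNMT3B1 level above that of DNMT3A2, and it did so on either set of even sites. It had 120 of 2440 methylated reads in the knockout (4.92%), 43 of 1632 with DNMT3B1 (2.63%) and 23 of 1546 with DNMT3A2 (1.49%) on shared sites, and 80 of 3517 with DNMT3B1 (2.27%) and 57 of 3388 with DNMT3A2 (1.68%) on all even sites. DNMT3B1 was higher in 3 of its 5 tiles, and the knockout was higher than DNMT3A2 in 5 of 5. The run with the start of Gabra2, chr5:71250001-71500000, had 4.72% in the knockout, 2.31% with DNMT3B1 and 3.39% with DNMT3A2 on shared sites. The run with the start of Cadm2, a cell adhesion molecule of synapses, chr16:67400001-67650000, had 5.14%, 0.744% and 5.20%, so the knockout was not above DNMT3A2 there. The remaining runs, chr9:35950001-36200000 and chr14:114350001-114600000, had 2.70% and 3.73% in the knockout, 1.18% and 1.11% with DNMT3B1, and 3.24% and 6.58% with DNMT3A2 on shared sites, with DNMT3A2 above the knockout in both. In the last 4 runs, in the order given, these levels rest on 14, 3, 6 and 4 methylated reads with DNMT3B1, and on 15 to 26 with DNMT3A2. On all even sites the 4 runs had 2.27%, 1.60%, 1.14% and 2.31% with DNMT3B1, and 2.51%, 2.94%, 2.17% and 4.44% with DNMT3A2. The DNMT3A2 level was below the 7.35% of other tiles on shared sites, and the 7.48% on all even sites, in all 8 runs.

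**Figure D4:**
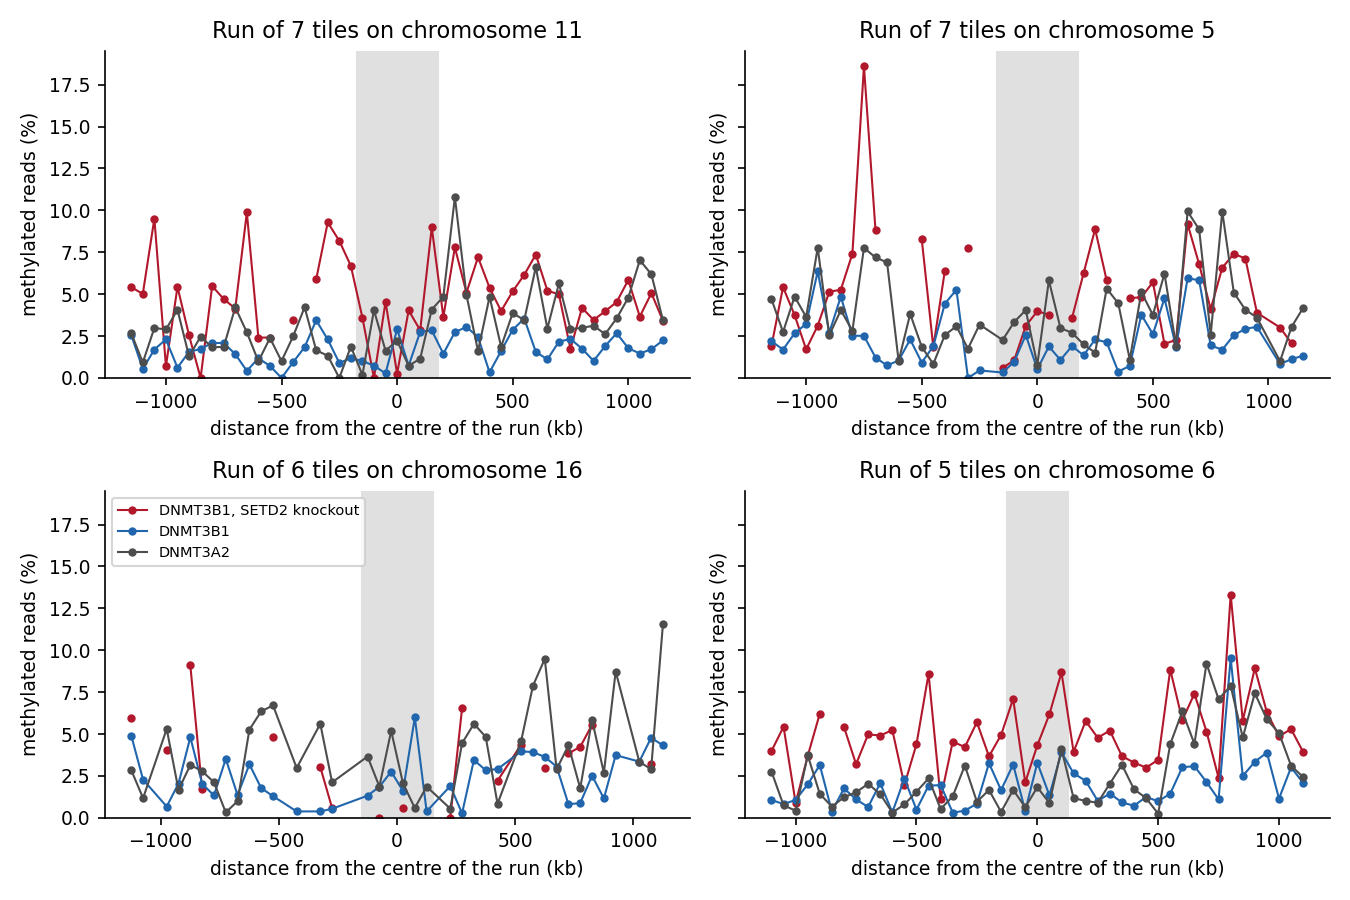
Methylation level (%) in even clusters of each 50 kb tile within 1000 kb of the 4 longest runs, by distance from the centre of the run (kb), in the SETD2 knockout (red), with DNMT3B1 (blue) and with DNMT3A2 (grey), with the knockout on shared sites and the enzymes on all even sites; grey bands are the runs, and gaps are tiles with too few sites. Single tiles swing by several percentage points in every line, and only within the run on chromosome 6 was the pooled DNMT3B1 level above that of DNMT3A2.

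The 10 tiles with the largest difference in odd clusters, among 1603 with at least 300 reads, mostly lost it. In even clusters 3 of 10 were higher with DNMT3B1. The tile chr4:74200001-74250000 had 58 of 456 methylated reads with DNMT3B1 (12.7%) and 5 of 353 with DNMT3A2 (1.42%), and lay 302 kb downstream of the Kdm4c start. On its shared sites the knockout had 10 of 181 (5.52%), DNMT3B1 15 of 156 (9.62%) and DNMT3A2 2 of 120 (1.67%). The tile chr3:79950001-80000000 had 24 of 513 (4.68%) and 11 of 474 (2.32%), but its shared sites held too few methylated reads to compare the lines, with 3 in the knockout, 3 with DNMT3B1 and 1 with DNMT3A2. The tile chr6:104800001-104850000 had 11 of 491 (2.24%) and 9 of 567 (1.59%), and on shared sites 3.37% in the knockout, 1.71% with DNMT3B1 and 1.78% with DNMT3A2. The largest difference of all, at chr2:36650001-36700000, was 8.94% with DNMT3B1 against 0.386% with DNMT3A2 in odd clusters, but 74.4% of its methylated DNMT3B1 reads came from 1 cluster of 500 bp. Its even clusters had 0.442% with DNMT3B1 and 1.69% with DNMT3A2, and on shared sites 9.32% in the knockout, 0.685% with DNMT3B1 and 1.30% with DNMT3A2.

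Gene starts were rare in chosen tiles. Starts of 15365 genes were located by the spacing of CpGs in their RefSeq promoters, without chromosome 18, which was not used here. A start lay in 174 of 3127 chosen tiles (5.56%) and in 26.9% of the other tiles. The nearest start was more than 200 kb away in 64.7% of chosen and 26.8% of other tiles, with median distances of 319 kb and 70.4 kb. CpG density moved with this: other tiles with a start had a median of 11.7 CpG sites per kb, and those beyond 200 kb 5.82. In chosen tiles these medians were 7.14 and 4.82. The shares were not compared at equal density. Starts with fewer than 5 CpGs in the promoter window could not be located, so tiles without one may still hold a gene, and a tile without a start may lie within a gene body. Downstream of the nearest start within 200 kb, chosen tiles had 5.95% in the knockout, 2.58% with DNMT3B1 and 4.57% with DNMT3A2. Upstream of it they had 5.79%, 2.28% and 4.27%. In the other tiles these levels were 6.81%, 3.24% and 8.74% downstream, and 6.68%, 3.07% and 8.39% upstream. The knockout over DNMT3B1 ratio was 2.31 (2.21 to 2.41) downstream and 2.55 (2.43 to 2.66) upstream in chosen tiles. It was 2.10 and 2.18 in the other tiles.

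Chosen tiles with and without a start differed in the knockout. The 174 with a start had 4.24% in the knockout, 2.40% with DNMT3B1 and 3.90% with DNMT3A2, and the 2953 without one had 5.72%, 2.36% and 4.06%. The knockout over DNMT3B1 ratio was therefore 1.77 (1.69 to 1.84) with a start and 2.42 (2.37 to 2.47) without one, where other tiles had 2.12 and 2.15. Within chosen tiles it was lower with a start on 15 of 18 autosomes. With only 3 to 16 tiles with a start per autosome, it ranged there from 1.17 on chromosome 11 to 4.12 on chromosome 5. Without a start it ranged from 2.11 to 2.72. The ratio was lower in chosen than in other tiles with a start on 11 of 18 autosomes, and higher in chosen than in other tiles without a start on 16 of 18. Chosen tiles with a start had 767 reads in odd clusters with DNMT3B1 at the median and those without 348, and the ratio was also lower in the deepest tiles. Their median densities were 7.14 and 4.98 CpG sites per kb. Depth and density thus move with this difference, and their parts were not tested. The promoter windows themselves were nearly free of methylation in the 253 located in chosen tiles. Over shared sites of odd and even clusters they had 0.515% in the knockout, 0.484% with DNMT3B1 and 0.385% with DNMT3A2. Windows in the other tiles had 0.828%, 0.307% and 0.730%. Odd clusters made the choice, so the order of the enzymes in these windows of chosen tiles is partly set by the rule. The Cklf window alone held 30 of the 125 methylated reads with DNMT3B1.

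The 228 genes with starts in chosen tiles included neuronal and general ones. A list of 28 genes of the neuronal surface and synapse and another of 29 genes of general cell machinery were drawn from these 228 by textbook function, after values of these tiles had been seen, so they are a description only. The tiles with the neuronal starts, among them Bdnf (a neurotrophin), Nlgn1 (a synaptic adhesion protein), Kcnd2 and Kcnh7 (potassium channels), Scn9a (a sodium channel) and Epha6 (an ephrin receptor), had 3.85% in the knockout, 1.18% with DNMT3B1 and 2.19% with DNMT3A2. The tiles with the general starts, among them Supt16 (a histone chaperone subunit), Mdh1 (malate dehydrogenase), Gle1 (mRNA export), Ddx41 (an RNA helicase), Srcap (a chromatin remodeller) and Eea1 (an endosome tether), had 4.25%, 3.23% and 4.29%. Among these listed tiles, methylation with DNMT3B1 was higher in those of general genes, and the knockout level was much the same in both.

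The knockout over DNMT3B1 ratio was 3.26 (2.70 to 3.94) in the neuronal tiles and 1.32 (1.23 to 1.40) in the general tiles, where all chosen tiles with a start had 1.77. Leaving out 1 tile at a time gave 3.10 to 3.71 for the neuronal and 1.30 to 1.49 for the general tiles. The value of 1.49 came without the Dus1l tile, which held 485 of the 1262 methylated DNMT3B1 reads of the general tiles. Both lists were drawn after values were seen, so neither these ranges nor the intervals test a difference between kinds of gene. The knockout over DNMT3A2 ratio was 1.76 (1.52 to 2.04) and 0.991 (0.934 to 1.05). In even clusters DNMT3B1 exceeded DNMT3A2 in 7 of 28 neuronal (25%) and 6 of 28 general tiles (21.4%), against 26.9% of all chosen and 7.37% of all tiles. Of the tiles with at least 10 shared sites, the knockout exceeded DNMT3B1 in 24 of 25 neuronal and 25 of 28 general tiles, and DNMT3A2 in 22 of 25 and 16 of 28. The median CpG density was 7.47 sites per kb in neuronal and 8.55 in general tiles, and the median DNMT3B1 reads in odd clusters were 674 and 1335, and whether density or depth had a part in the difference was not tested. In the Bdnf tile, chr2:109500001-109550000, the levels were 4.26% in the knockout, 0.978% with DNMT3B1 and 0.425% with DNMT3A2 on shared sites, while on all even sites DNMT3B1 was below DNMT3A2, at 0.809% and 1.51%. In the Gle1 tile, chr2:29750001-29800000, they were 6.26%, 6.20% and 6.35% on shared sites, and in the Supt16 tile, chr14:52800001-52850000, they were 5.14%, 4.84% and 4.75%. Tiles of both lists varied: among general genes the Ecpas tile had 4.07%, 1.72% and 1.75% and the Ddx1 tile 3.95%, 1.06% and 0.815% in the same order of lines, and among neuronal genes the Dpp10 tile had 1.84%, 4.14% and 0.621%. These tiles were named after their values were seen.

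**Figure D5:**
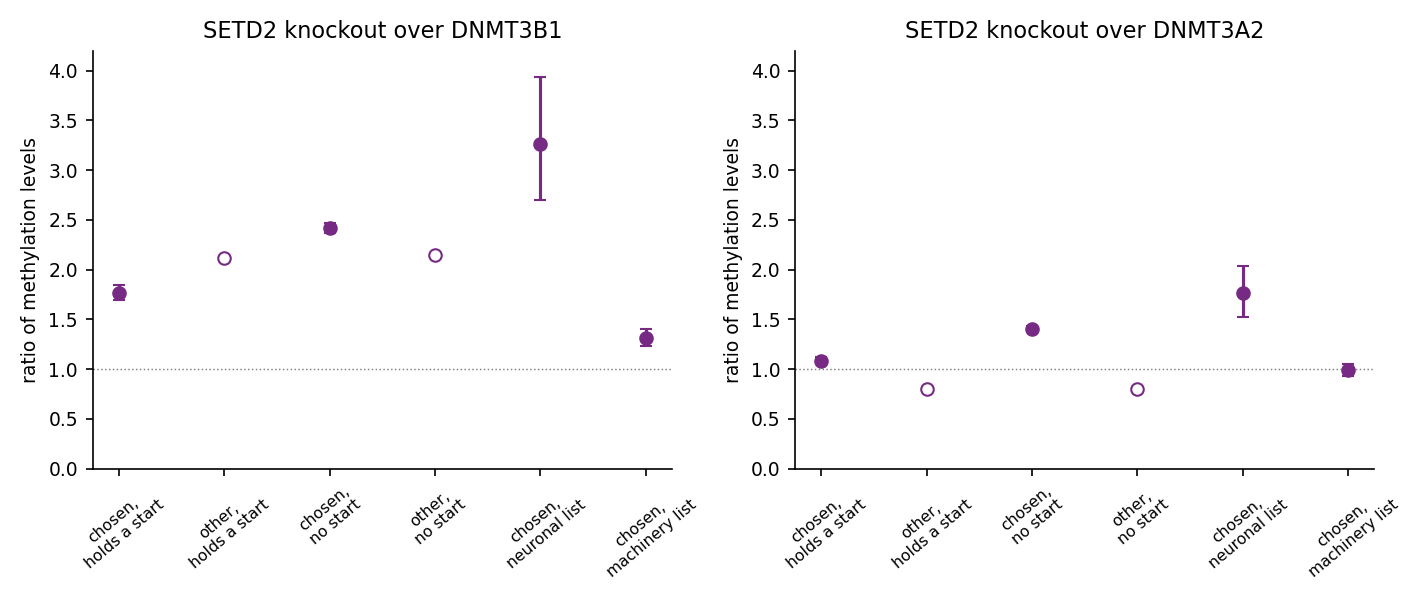
Ratio of pooled methylation levels in even clusters, SETD2 knockout over DNMT3B1 (left) and over DNMT3A2 (right), for tiles with and without a located gene start and for the chosen tiles of both gene lists; filled points are chosen tiles, open points other tiles, bars are 95% counting intervals and the dotted line marks equal levels. The neuronal tiles lie at 3.26 and the general tiles at 1.32 on the left, with both lists drawn after values were seen.

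The best measured chosen tiles mostly held a located gene start, and these tiles were named after their values were seen. The tile with the most reads, chr11:120650001-120700000, holds the starts of Fasn and of Dus1l, a tRNA dihydrouridine synthase. It had 820 of 16065 methylated reads in the knockout (5.10%), 485 of 9816 with DNMT3B1 (4.94%) and 545 of 9688 with DNMT3A2 (5.63%) on shared sites, and 4.90% (4.49 to 5.34) with DNMT3B1 and 5.72% (5.27 to 6.19) with DNMT3A2 on all even sites. In its odd clusters the levels were 5.32% with DNMT3B1 and 5.23% with DNMT3A2, so that the enzymes were close to equal in both sets of clusters. The tile chr13:55600001-55650000, with the starts of Ddx41, Dok3 and Pdlim7, had 5.17% in the knockout, 3.50% with DNMT3B1 and 4.66% with DNMT3A2 on shared sites. The tile chr8:59750001-59800000, with the start of Hand2, a transcription factor of heart and limb, had 5.73%, 2.15% and 2.39%. None of the 10 tiles with the most reads was higher with DNMT3B1 in its even clusters, on either set of sites.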

How the data were processed

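Genomic DNA of 3 lines was bisulfite-converted and sequenced in 2 runs each, per the labels' protocols. The authors deposited, per the file headers, counts of all and of methylated reads at each CpG for DNMT3B1 and DNMT3A2, and for the SETD2 knockout a count and a fraction per site, with positions on build mm9, as named in the submitters' processing notes. Which aligner and caller were used is not given in the sources used here. Sites of the knockout file have at least 10 reads, so shallow sites enter only the other lines.

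Sites with 5 to 45 reads (DNMT3A2), 5 to 40 (DNMT3B1) and at most 80 (knockout) were kept, and tiles needed at least 10 sites in odd and in even clusters. A level is methylated over all reads. Python 3.11.15, numpy 2.4.6, pandas 2.3.3 and scipy 1.17.1 were used, and the odd and even split was tested on simulated data. Sequenced fragments can span neighbouring clusters, for which clusters of 5 kb were an alternative.

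The rule, the tiles and the gene lists were chosen with earlier results of these data known. Tiles named are the 8 longest runs, the 10 largest odd differences, the 3 tiles on each side of the threshold, and the autosomes with extreme shares; others are said to be named after their values were seen. With no mm9 annotation, 18135 of 20328 RefSeq promoter windows (15365 genes) were placed by CpG spacing, a step added after the data were seen; of windows with a single match, 1 fell on another chromosome. Genes with starts in the named tiles are named for that reason, in place of genes that overlap them. Alternatives were coverage, tile and cluster size, number of sites, margin of the choice, background, sites of the knockout and leaving out chromosome 6.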

Additional observations from a re-analysis of the deposited data

Results flagged for a closer look

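The rule was for autosomes, and the X chromosome was looked at separately. With the same rule 59 of its 506 tiles (11.7%) had a higher DNMT3B1 than DNMT3A2 level in odd clusters. In even clusters 8 of the 59 (13.6%) were higher with DNMT3B1, close to the 12.5% of all 506 X tiles. The share of chosen X tiles rests on 8 tiles and is imprecise, and whether the X chromosome differs from the autosomes was not tested. On the autosomes these shares were 26.9% of chosen and 7.37% of all tiles. On the 622 sites that passed in all 3 lines, the 59 tiles had 4.64% methylated reads in the SETD2 knockout, 1.83% with DNMT3B1 and 4.05% with DNMT3A2. On all even sites they had 2.26% with DNMT3B1 and 4.96% with DNMT3A2. All X tiles had 2.32% with DNMT3B1 and 5.90% with DNMT3A2.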

How the results depend on the processing

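No paired analysis was possible because the tables carry 1 value per site for the 2 runs of each line. Under 11 settings, the main one included, the share of chosen tiles higher again with DNMT3B1 lay above that of all tiles. In all of them the DNMT3B1 over DNMT3A2 and knockout over DNMT3A2 ratios lay above those of other tiles. CpG density lay below that of other tiles in each. The share with a chosen neighbour lay above the share of tiles chosen in each. A tile has 2 neighbours, so tiles placed at random would show this too, and nothing is concluded from it. The knockout over DNMT3B1 ratio was above that of other tiles in 9 of 11. Values are given as tiles chosen, share higher again, DNMT3B1 over DNMT3A2, knockout over DNMT3A2, knockout over DNMT3B1, CpG sites per kb and share with a chosen neighbour. With at least 10 reads per site they were 698, 13.0%, 0.473, 0.932 (the knockout then below DNMT3A2), 2.00, 8.12 and 10.3%. With at least 200 sites per tile they were 98, 8.16%, 0.555, 1.02, 1.75, 9.10 and 2.04%. With tiles of 100 kb they were 1695, 29.6%, 0.668, 1.56, 2.39, 4.79 and 41.2%. With DNMT3B1 at least 1.5 times DNMT3A2 they were 1546, 32.3%, 0.672, 1.61, 2.43, 4.86 and 21.5%. With 1 read per site the moved values were 29.4%, 0.654, 1.49, 4.78 sites per kb and 44.5%. Choosing on even clusters gave 31.6% with a neighbour. Clusters of 5 kb gave 0.563 and 1.29 for the ratios over DNMT3A2, tiles shifted by 25 kb gave 1.32 for the knockout, and all listed knockout sites gave 1.39. Subtracting the level of the densest sites gave 0.586, 1.30 and 2.25 for the 3 ratios. Choosing on all sites, added after seeing the data, gave 2230 tiles; without chosen tiles among those 200 kb away, also added, the knockout over DNMT3A2 ratio there was 0.990 in place of 1.03. The stricter limits remove the CpG-poor tiles by construction; other causes were not tested. With about 360 reads per line in odd clusters of a typical chosen tile, a single tile's order is uncertain, and the 3 lines are 1 sample each.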
